A study of Mus musculus with 2 samples.

Results

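The 41 genes described here encode core proteins of the spliceosome and the serine/arginine-rich (SR) splicing factors, and they were chosen by name from the 21853 protein-coding genes examined. Chromatin accessibility at these genes was assayed by ATAC-seq, which uses a transposase to cut and tag DNA that is not packed in nucleosomes. The cells were haematopoietic stem cells, per the labels, taken as primary cells from adult C57BL/6J mice aged 5 to 6 weeks. There was 1 group of 2 libraries, biological replicates 1 and 2, with no other treatment or genotype named. Both carried the same donor identifier, so the spread between them may be technical. The labels named no sorting markers, gave sex as not collected, and gave a starting quantity for replicate 2 alone, 50000 cells. With 1 group there was no treated or control arm, and the values of the 41 genes were set beside those of all protein-coding genes, with no test.

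Introns are removed from pre-mRNA by the spliceosome, which is assembled anew on each intron from small nuclear ribonucleoprotein particles (snRNPs) and accessory proteins. The U1 snRNP pairs with the 5′ splice site, SF1 and the U2AF heterodimer mark the branch point and the 3′ splice site, the U2 snRNP with its SF3A and SF3B complexes takes over the branch point, and the U4/U6.U5 tri-snRNP then brings in the catalytic core. SR proteins bind exons and recruit these particles. In human blood, mutations of SF3B1, SRSF2, U2AF1 and ZRSR2 recur in myelodysplastic syndromes, clonal disorders that arise in haematopoietic stem cells.

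Of the 41 genes, 40 (97.6%) had a promoter region in the main list, against 51.5% of all protein-coding genes. The main list was the conservative list of peaks that passed a threshold on the irreproducible discovery rate (IDR), which compares both replicates. A promoter region is a set of overlapping peaks whose highest summit lies within 1 kb of a transcription start site (TSS) of the gene. The exception was Prpf31, a U4/U6 snRNP protein, which had a promoter region in replicate 1's own IDR list and in the IDR thresholded list of both replicates. By sequence, 35 of the 41 genes had a CpG-rich promoter at their 5′-most TSS (GC content of at least 55% and an observed over expected CpG ratio of at least 0.6), against 45.0% of all genes. Of those 35 genes 35 had a main promoter region, against 80% of all genes with a CpG-rich promoter. In bulk ATAC-seq a promoter open in more cells and one more open in each cell cannot be told apart.

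The main list held 31532 regions, replicate 1's IDR list 34588 and replicate 2's 22434. Read depth is unknown, since the files used here list peaks. The stem cell label was checked against 16 stem and progenitor genes, of which 10 had a promoter region in the main list, against 51.5% of all genes. Among the 10 were Kit (signal 8.39), Spi1 (8.42) and Cd34 (8.33). All 16 had a promoter region in the list from pooled reads, against 66% of all genes. Ly6a, Slamf1, Procr, Mecom, Gata2 and Fli1 had none in the main list. Their signals in the pooled list ran from 2.35 (Gata2) to 4.42 (Slamf1), below the first quartile of all genes there, 5.98. Marker genes of other lineages had a main promoter region in 1 of 6 erythroid, 0 of 6 granulocyte, 2 of 5 B-lymphoid and 1 of 5 T-lymphoid genes. Their main signals were 9.83 at Epor, 9.34 at Pax5, 6.18 at Ebf1 and 13.2 at Cd3d. All but Ebf1 lay above Spi1, the highest of the 16 stem and progenitor genes, so promoter signal did not rank those genes first. For the granulocyte genes the count was 3 of 6 in replicate 1's IDR list and 0 of 6 in replicate 2's, and the part of such cells in the values below was not tested.

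Promoter signal, the authors' value for the highest peak of a region, with no unit stated, had a median of 10.05 over the 40 spliceosome genes (range 5.93 to 15.4), close to the median of 9.81 over the 11258 genes with a promoter region. Of the 40 genes 22 lay above that median and 13 above the third quartile of 11.9, which 25% of all genes exceeded. Below the first quartile of 7.72 lay 5 of the 40. In the longer replicated and pooled lists, whose medians over all genes were lower (8.78 and 8.69), 31 and 32 of 41 genes exceeded the median. The 5 highest were Prpf8, Snrnp70, Snrpb2, Snrpd1 and Prpf19, and the 5 lowest were U2af2, Srsf6, Srsf10, Srsf5 and Snrpb.

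**Figure D1:**
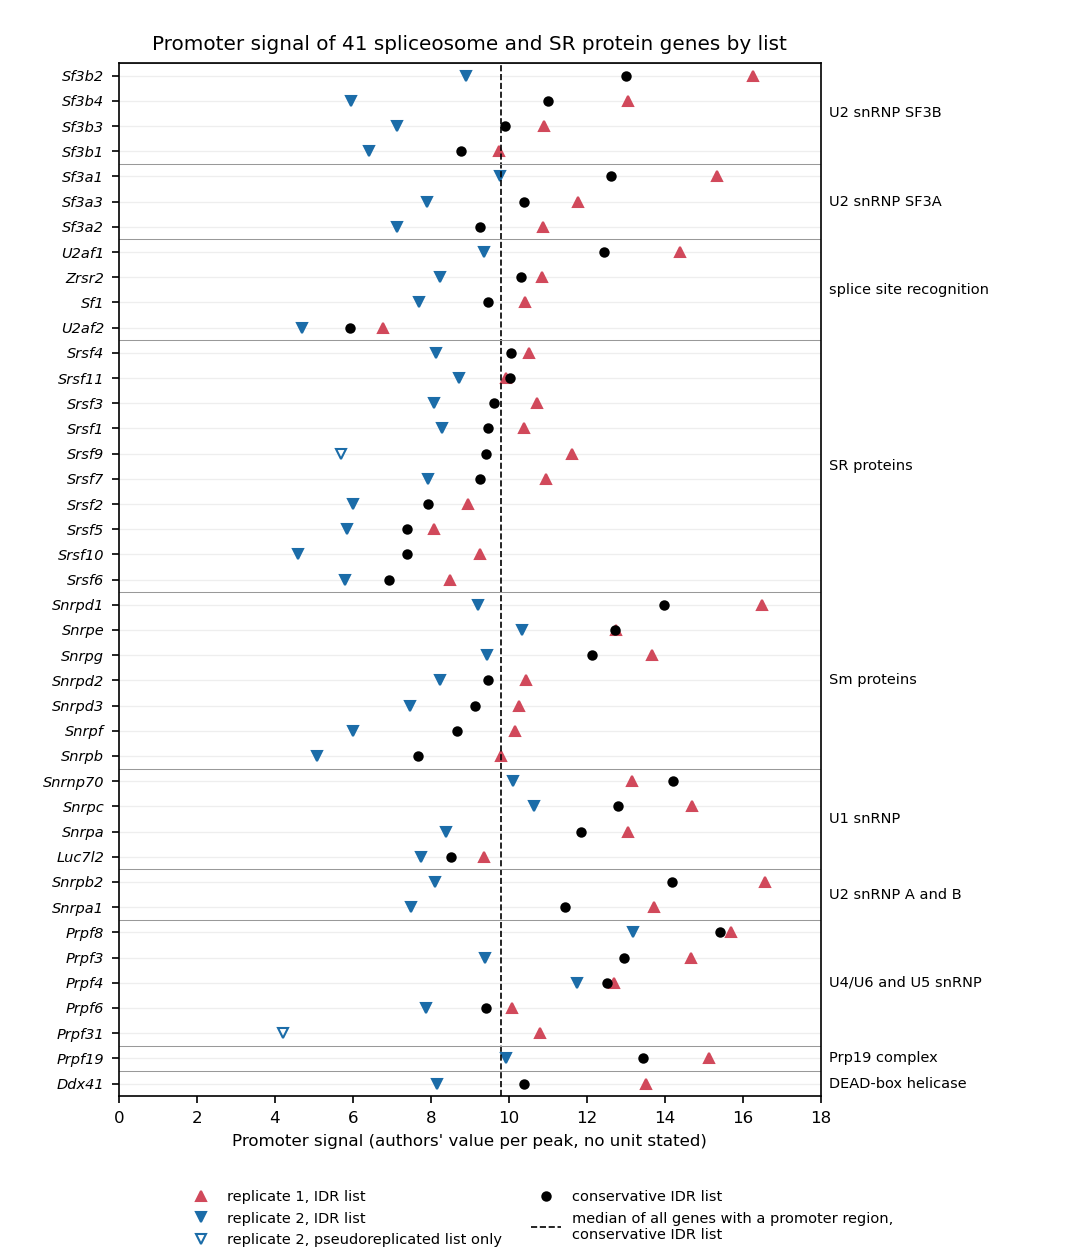
Promoter signal (authors' value per peak, horizontal axis) of each of the 41 genes, grouped by role, with 1 point per list; the dashed line is the median of all genes with a promoter region in the conservative IDR list, 9.81. The SR protein genes lie between 6.93 and 10.1 in the conservative list, all but Srsf4 and Srsf11 left of that line, and for 39 of 39 genes in both IDR lists replicate 1 lies right of replicate 2.

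The stretches just upstream of the TSS are printed for the 4 genes recurrently mutated in human myelodysplastic syndromes, for Prpf8, which had the highest signal, and for Prpf31, which had no main promoter region. Each was read 5′ to 3′ on the gene's strand from the mm10 (GRCm38.p6) reference genome of RefSeq, stops at the base before the TSS, and holds no annotated exon. The stretch of Sf3b1 is chr1:55027482-55027631 on the minus strand, that of Srsf2 is chr11:116853095-116853244 on the minus strand, and that of U2af1 is chr17:31658893-31659042 on the minus strand, ahead of the upstream-most of its start sites. That of Zrsr2 is chrX:163958662-163958811 on the minus strand, that of Prpf8 is chr11:75486666-75486815 on the plus strand, and that of Prpf31 is chr7:3629930-3629984 on the plus strand, only 55 bases long because an exon of the annotation lies beyond it. Capitals mark matches on either strand to the motifs searched, here the GC box (GGGCGG), the NFY box (CCAAT), the TATA box (TATAAA) and the RUNX motif (TGTGGT).
Sf3b1: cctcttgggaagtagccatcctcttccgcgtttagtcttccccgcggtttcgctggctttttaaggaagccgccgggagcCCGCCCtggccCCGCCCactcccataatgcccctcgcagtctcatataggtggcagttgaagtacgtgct
Srsf2: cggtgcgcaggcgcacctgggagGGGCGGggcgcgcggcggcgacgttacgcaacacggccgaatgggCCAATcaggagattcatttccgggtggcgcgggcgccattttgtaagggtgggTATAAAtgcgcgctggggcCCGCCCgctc
U2af1: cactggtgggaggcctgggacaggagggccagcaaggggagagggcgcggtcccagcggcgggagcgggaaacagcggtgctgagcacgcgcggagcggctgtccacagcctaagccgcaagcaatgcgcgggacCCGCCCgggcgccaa
Zrsr2: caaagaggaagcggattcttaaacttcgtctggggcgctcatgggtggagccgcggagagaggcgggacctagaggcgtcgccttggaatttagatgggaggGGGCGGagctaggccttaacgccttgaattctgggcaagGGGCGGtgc
Prpf8: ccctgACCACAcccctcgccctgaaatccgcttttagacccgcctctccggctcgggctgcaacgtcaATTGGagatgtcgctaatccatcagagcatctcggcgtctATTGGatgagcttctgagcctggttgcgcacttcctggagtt
Prpf31: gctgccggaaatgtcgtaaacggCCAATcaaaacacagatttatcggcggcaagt
Counted from the TSS to the first base of the match, Sf3b1 has GC boxes at -70 and -59, Zrsr2 at -48 and -9, and U2af1 at -15. Srsf2 has GC boxes at -127 and -10, a CCAAT box at -82 and TATAAA at -29. Prpf8 has CCAAT boxes at -82 and -42 and a RUNX match at -145 but no GC box, and Prpf31 has a CCAAT box at -32. Over the 150 bases upstream of the 5′-most TSS of 21849 genes, 35.9% held a GC box, 27.3% CCAAT, 7.19% TATAAA and 7.76% TGTGGT, so the GC and CCAAT boxes are common in such stretches and the other letters are less so.

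Among the SF3B genes, whose products hold the branch point within the U2 snRNP, promoter signal in the main list was highest at Sf3b2 and lowest at Sf3b1, although in replicate 2 Sf3b4 was lower than Sf3b1. Sf3b2 had a signal of 13.0 in the main list, 16.3 in replicate 1's IDR list and 8.91 in replicate 2's. Sf3b1, the largest subunit and the one mutated in human myelodysplastic syndromes, had 8.76 in the main list, 9.76 in replicate 1 and 6.43 in replicate 2, below the main median of all genes. Its promoter region, chr1:55027172-55027790, was 619 bp wide with a single summit 7 bp downstream of the TSS. Sf3b4, an RNA-binding subunit, had 11.0 in the main list, 13.1 in replicate 1 and 5.96 in replicate 2, and its ratio of 2.19 between the replicates was the highest of the 39 genes in both lists. Sf3b3, the β-propeller scaffold subunit, had 9.91 in the main list, 10.9 in replicate 1 and 7.12 in replicate 2, with its summit 263 bp upstream in a region shared with Cog4.

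The 3 SF3A genes, which encode the other U2-specific complex, all had a main promoter region. Sf3a1, the subunit with a ubiquitin-like domain, had a signal of 12.6 in the main list, 15.3 in replicate 1 and 9.77 in replicate 2, and was among the 10 highest of the 41 genes in each replicate. Sf3a3 had 10.4 in the main list, 11.8 in replicate 1 and 7.91 in replicate 2, and Sf3a2 had 9.26, 10.9 and 7.12 in the same 3 lists. The regions of Sf3a1 and Sf3a2 also lay within 1 kb of the TSS of a neighbour, Ccdc157 and Plekhj1.

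The genes that recognise the 3′ end of the intron had the widest range of main signal within a role, between 5.93 and 12.4. U2af1, which encodes the subunit that reads the AG dinucleotide, had 12.4 in the main list, 14.4 in replicate 1 and 9.37 in replicate 2. U2af2, encoding its partner that binds the polypyrimidine tract, had 5.93 in the main list, 6.78 in replicate 1 and 4.71 in replicate 2. That was the lowest main signal of the 40 genes, at percentile 7.49 of all genes with a promoter region. The accessible DNA at U2af2 was split between regions: the stronger, chr7:5060909-5061859, had its summit 491 bp upstream of the nearest TSS, and the weaker, with a signal of 3.57, had its summit 29 bp upstream of another. Zrsr2, on the X chromosome and encoding the 3′ splice site factor of the minor spliceosome, had 10.3 in the main list, 10.9 in replicate 1 and 8.23 in replicate 2, over a wide region of 1342 bp. Sf1, which encodes the branch point binding protein and has 8 annotated start sites, had 9.47 in the main list, 10.4 in replicate 1 and 7.70 in replicate 2.

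The 10 SR protein genes had wide promoter regions of middling to low signal. Main signals ran between 6.93 and 10.1 with a median of 9.33, and 2 of 10, Srsf4 (10.1) and Srsf11 (10.04), exceeded the median of all genes. Srsf4 had 10.5 in replicate 1 and 8.14 in replicate 2. Srsf3 and Srsf7, whose products also act as adaptors for mRNA export, had 9.62 and 9.25 in the main list, 10.7 and 10.9 in replicate 1, and 8.08 and 7.92 in replicate 2. Srsf1, for the classical SR protein, had 9.46 in the main list, 10.4 in replicate 1 and 8.29 in replicate 2, and Srsf9 had 9.41 in the main list. Srsf2, mutated in human myelodysplastic syndromes, had 7.92 in the main list, 8.95 in replicate 1 and 6.00 in replicate 2. Its main summit lay 317 bp upstream of its TSS in a region shared with Mfsd11, and its replicate 2 summit 638 bp upstream. The 3 lowest were Srsf5 (7.39 in the main list, 8.09 in replicate 1, 5.84 in replicate 2), Srsf10 (7.38, 9.27 and 4.60) and Srsf6 (6.93, 8.48 and 5.80). At Srsf10, whose product represses splicing when dephosphorylated, the summit lay 299 bp downstream of the TSS, the farthest downstream of the 40 genes. Srsf6 had another promoter region with its summit 834 bp downstream and a signal of 4.51, and Srsf11 another of 6.39 at an alternative start site.

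The promoter regions of SR protein genes had a median width of 1218.5 bp (range 862 to 1506), against 933.5 bp for the other 30 genes (572 to 1395) and 875 bp for all genes. Of the 10, 6 exceeded the third quartile of all genes, 1082 bp, as did 9 of the other 30. The widest belonged to Srsf7, 1506 bp at chr17:80206336-80207841, in a region shared with Ttc39d. Median signal ran the other way, 9.33 for the 10 SR protein genes and 11.2 for the other 30, of which 20 exceeded the median of all genes. In replicate 1's IDR list the median widths were 1100.5 bp for the 10 SR protein genes, 885 bp for the other 31 and 806 bp for all genes, and in replicate 2's they were 1063 bp for 9 SR protein genes, 723.5 bp for the other 30 and 693 bp for all genes. The order by width was thus the same in each library on its own, and so was the order by median signal, 10.2 against 12.7 in replicate 1 and 7.92 against 8.20 in replicate 2. In replicate 2 the SR protein median was close to that of all genes, 8.01, and 4 of 9 SR protein genes exceeded it. Srsf4, at 1350 bp in the main list, was among the 6 above the third quartile there. In each library alone it was the narrowest SR protein gene, at 546 bp in replicate 1 and 332 bp in replicate 2. Over the 40 genes the Spearman coefficient between main signal and region width was -0.41, against 0.17 over 11258 genes, a description over genes that share libraries and differ in base composition.

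**Figure D2:**
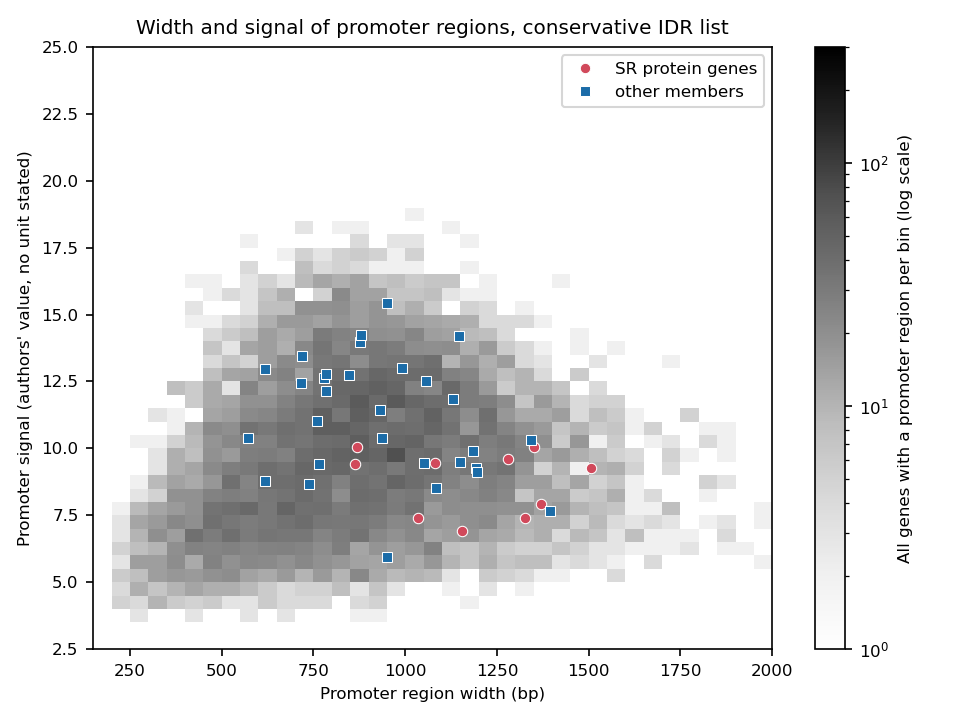
Promoter region width in bp (horizontal axis, shown up to 2000 bp) against promoter signal (authors' value, vertical axis) in the conservative IDR list; red circles are the 10 SR protein genes, blue squares the other 30 genes, and grey bins count all genes with a promoter region on a log scale. The SR protein genes lie between 862 and 1506 bp and none has a signal above 10.1, while the other 30 reach 15.4.

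The Sm proteins form the ring that surrounds the RNA of the U1, U2, U4 and U5 particles, and their 7 genes spanned much of the range. Snrpd1, for the SmD1 subunit, had a signal of 14.0 in the main list, 16.5 in replicate 1 and 9.22 in replicate 2, at percentile 91.2 of all genes with a promoter region. Snrpe had 12.7 in the main list, 12.7 in replicate 1 and 10.3 in replicate 2, and Snrpg had 12.1, 13.7 and 9.43 in the same lists. Snrpd2, Snrpd3 and Snrpf lay lower, at 9.48, 9.14 and 8.67 in the main list, 10.4, 10.3 and 10.2 in replicate 1, and 8.24, 7.47 and 6.02 in replicate 2. The region of Snrpd2, whose summit lay 361 bp upstream, was shared with Qpctl, and that of Snrpd3 with Gucd1. Snrpb, which encodes SmB, had the lowest value of the ring, 7.68 in the main list, 9.79 in replicate 1 and 5.09 in replicate 2. Its region was 1395 bp wide with 4 summits.

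Of the 4 U1 genes, those for the particle's own proteins lay above the main median of all genes. Snrnp70, encoding the U1-70K protein that binds the first stem-loop of U1 RNA, had 14.2 in the main list, 13.2 in replicate 1 and 10.1 in replicate 2. Snrpc, for the C protein of U1 that steadies pairing at the 5′ splice site, had 12.8 in the main list, 14.7 in replicate 1 and 10.6 in replicate 2. Its 5′-most TSS had the lowest GC content of the 41, 45.1%, and a CpG ratio of 0.275, but the open region lay at a TSS 1937 bp away with a GC content of 58.9% and a CpG ratio of 0.76. Snrpa, for the A protein of U1, had 11.8 in the main list, 13.1 in replicate 1 and 8.39 in replicate 2, and shared its region with BC024978. Luc7l2, a U1-associated factor that influences the choice of 5′ splice site, was lower, at 8.51 in the main list, 9.36 in replicate 1 and 7.75 in replicate 2. Its promoter held another region of nearly equal signal, 7.88, with a summit 299 bp downstream of the nearest TSS, and in replicate 2 that downstream region was the stronger one. The U2 genes Snrpb2 and Snrpa1, for a pair of proteins that bind each other and the U2 RNA, had 14.2 and 11.4 in the main list, 16.6 and 13.7 in replicate 1, and 8.11 and 7.49 in replicate 2.

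Prpf8, the scaffold of the catalytic core in the U5 snRNP, had the highest promoter signal of the 41 genes. Its values were 15.4 in the main list, 15.7 in replicate 1 and 13.2 in replicate 2, at percentile 96.7 of all genes with a promoter region, and it was the highest of the 41 in replicate 2 but lay behind Snrpb2, Snrpd1 and Sf3b2 in replicate 1. The region, chr11:75486381-75487331, was 951 bp wide with its summit 63 bp upstream of the TSS. The U4/U6 genes Prpf3 and Prpf4 had 13.0 and 12.5 in the main list, 14.7 and 12.7 in replicate 1, and 9.40 and 11.8 in replicate 2. Prpf4, in a region shared with Cdc26, had the most even pair of replicates, with a ratio of 1.08. Prpf6, which bridges the U5 particle to U4/U6, had 9.41 in the main list, 10.1 in replicate 1 and 7.87 in replicate 2, and the lowest CpG ratio of the 41 at its 5′-most TSS, 0.137. Its open region lay at a TSS 9448 bp away, where the ratio was 0.915. Prpf19, the ubiquitin ligase of the complex that joins at activation, had 13.4 in the main list, 15.1 in replicate 1 and 9.92 in replicate 2. Ddx41, a DEAD-box helicase whose human counterpart is mutated in inherited myeloid neoplasms, had 10.4 in the main list, 13.5 in replicate 1 and 8.17 in replicate 2, and the narrowest region of the 40, at 572 bp.

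Nearly the same set of these promoters was listed in both replicates. All 41 genes had a promoter region in replicate 1's IDR list, against 52% of all genes, and 39 of 41 in replicate 2's, against 45.6% of all genes. The 39 were in both lists, against 44.2% of all genes. Prpf31 and Srsf9 were the 2 genes missing from replicate 2's IDR list. Prpf31 had a signal of 10.8 in replicate 1, and in replicate 2 it appeared in the more permissive pseudoreplicated list alone, at 4.22. Srsf9 had 11.6 in replicate 1 and 5.69 in replicate 2's pseudoreplicated list. In the pseudoreplicated lists all 41 genes had a promoter region, against 63.4% of all genes for replicate 1 and 61.8% for replicate 2, and likewise in the list called on pooled reads, against 66% of all genes.

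Replicate 1's signal exceeded replicate 2's at 39 of 39 genes present in both IDR lists, as it did at 95.2% of all genes. The ratio had a median of 1.46 over the 39 genes (range 1.08 to 2.19) and 1.35 over 9665 genes. The scaling of the signal is not stated, so this ratio compares lists and not amounts of open DNA. Besides Sf3b4, the genes with a ratio above 2 were Snrpb2 (2.04) and Srsf10 (2.01). The Spearman coefficient between the replicates was 0.73 over the 39 genes and 0.71 over 9665 genes, a description over genes of the same 2 libraries. Of the 10 highest genes of each replicate 6 were shared, namely Prpf8, Prpf19, Prpf3, Sf3a1, Snrpc and U2af1.

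Summits lay close to the TSS. The median position over the 40 genes was 33 bp upstream (-33 bp, range -491 to 299), against -40 bp over all genes, and 25 of 40 (62.5%) were within 100 bp of the nearest TSS, against 65.1% of all genes. Within 200 bp the shares were 34 of 40 (85%) and 81.3%. In the main list U2af2 (-491), Snrpd2 (-361), Srsf6 (-340) and Srsf2 (-317) were farthest upstream, and Srsf10 (299), Snrpa1 (190), Sf3b4 (156) and Snrpg (141) farthest downstream. A single library could differ. In replicate 2's IDR list the summit lay at -638 at Srsf2, -194 at Srsf6 and 609 at Snrpb, but at -483 at U2af2 and -381 at Snrpd2. Of the 40 genes 10 (25%) shared their region with the TSS of a neighbour, against 20.4% of all genes. They were Sf3b3, Sf3a1, Sf3a2, Srsf2, Srsf7, Srsf11, Snrpd2, Snrpd3, Snrpa and Prpf4, and for these the signal cannot be assigned to 1 gene of the pair. The neighbour of Srsf11 was Lrrc40.

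**Figure D3:**
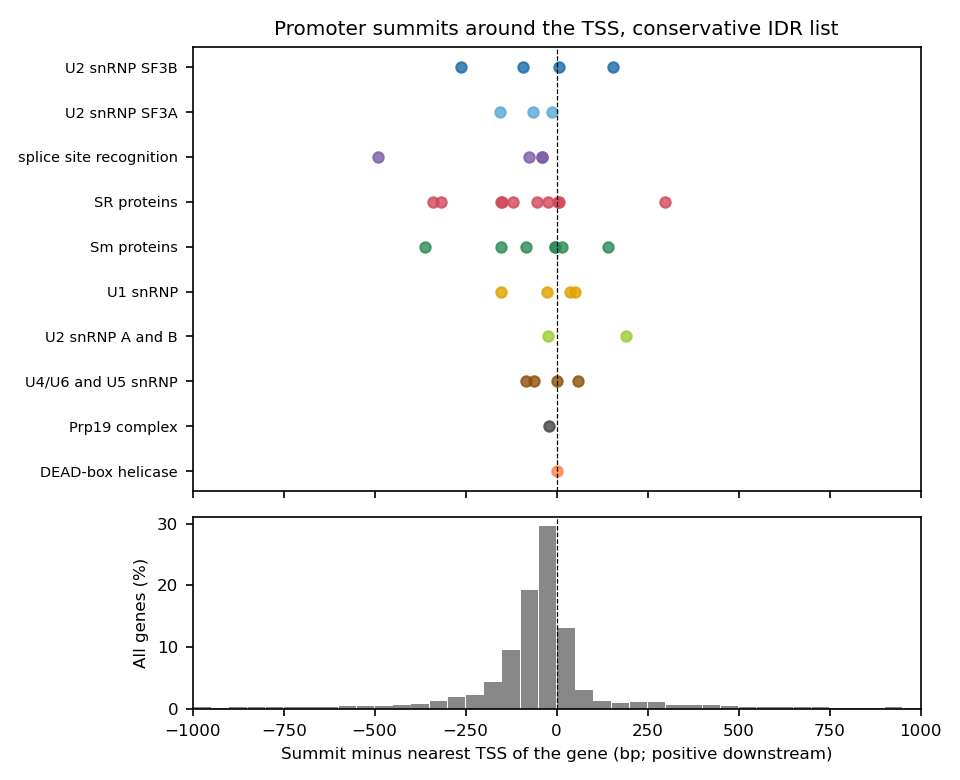
Position of the promoter summit relative to the nearest TSS of the gene, in bp with positive values downstream, in the conservative IDR list; the upper panel has 1 point per gene in rows by role, and the lower panel gives the share of all genes with a promoter region per 50 bp bin. Most points fall within 200 bp of the TSS, and the SR protein row is spread between -340 and 299 bp.

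Of 11 short motifs searched on both strands within 100 bp of the promoter summit, the ETS motif (CCGGAAG, the core bound by the GABP and ELK factors) had the largest gap in percentage points between the spliceosome genes and all promoter regions. It was found in 18 of 40 windows (45%), against 16.1% of the 11226 windows of all promoter regions and 20.1% of the windows of 7879 genes with a CpG-rich promoter. Among 92 other spliceosome genes with a promoter region, outside the 41, it was found in 25 (27.2%). Within the CpG-rich promoters of the 41 genes it was found in 14 of 35. By role it was found at 6 of 7 SF3A and SF3B genes, all but Sf3b1, at 3 of 7 Sm genes (Snrpb, Snrpd1 and Snrpg) and at 3 of 10 SR protein genes (Srsf4, Srsf5 and Srsf7). U2af2, Snrpc, Snrpb2, Prpf3, Prpf6 and Prpf19 completed the 18. Genes with a match had a median main signal of 10.7 and the 22 without one 9.55. These roles and the motif were singled out after their counts were seen, and a match says only that these letters are present. Each gene gave only the window of its highest promoter region, whereas the 11226 windows also took in weaker regions of genes with several.

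The ETS matches of the 6 SF3A and SF3B genes, and of 4 further genes of high main signal, are printed to show the match in place. The match is in capitals, with 10 bases on either side, on the strand that reads CCGGAAG, from the mm10 reference genome of RefSeq. For Sf3b2 this is chr19:5295452-5295478 (minus strand), for Sf3b3 chr8:110847016-110847042 (plus), for Sf3b4 chr3:96172493-96172519 (plus), for Sf3a1 chr11:4160337-4160363 (plus), for Sf3a2 chr10:80798649-80798675 (plus) and for Sf3a3 chr4:124714761-124714787 (minus). For Snrpb2 it is chr2:143063031-143063057 (minus), for Prpf19 chr19:10895153-10895179 (plus), for Prpf3 chr3:95855794-95855820 (minus) and for Snrpc chr17:27840038-27840064 (plus).
Sf3b2: gattacgcaaCCGGAAGtttctggaag
Sf3b3: cctcgcaagcCCGGAAGcgcccaccgg
Sf3b4: gagccttggcCCGGAAGtggaagttgt
Sf3a1: gagggcgggaCCGGAAGtgctcccgcg
Sf3a2: gcctttgctcCCGGAAGggatcgcttc
Sf3a3: tccgcgtgtcCCGGAAGtgtcttgggg
Snrpb2: cttccccgcgCCGGAAGagggcggcca
Prpf19: ggagcgctcgCCGGAAGaagccgagcc
Prpf3: cgtagggcaaCCGGAAGgtttccggtt
Snrpc: agggcagaggCCGGAAGcggaagtcct
The centre of the match lay on the TSS of Sf3a1, 2 bp upstream of the TSS of Sf3a3, 10 bp upstream at Sf3b2 and 70 bp upstream at Sf3a2, but 253 bp upstream at Sf3b3 and 174 bp downstream at Sf3b4. Of the 18 genes, 9 had the match within 50 bp of the TSS and 13 had it on the strand of the gene. A further match lay in the same window at 3 genes (Sf3b4, Srsf5 and Snrpb2), and 1, at Srsf5, overlapped a GC box. With windows of 50 bp either side of the summit the count was 14 of 40 genes against 10.5% of all windows, and with 200 bp it was 20 of 40 against 21.1%. At the summits of each library alone it was 19 of 41 against 16.2% in replicate 1 and 17 of 39 against 16.6% in replicate 2.

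The other motifs were near their shares at all promoters or rare. The GC box (GGGCGG) was found at 23 of 40 genes (57.5%), against 59.4% of all windows, and CCAAT at 16 of 40 (40%), against 33.9%. NRF1 letters (GCATGCGC) were found at Srsf7, Snrnp70 and Ddx41, against 4.14% of all windows, and YY1 letters (AAGATGGC) at Sf3b3, Sf3b4 and Srsf6, against 3.84%. The E box (CACGTG) was found at Snrpa, Prpf3 and Prpf19 (8.44% of all windows), the cAMP response element (TGACGTCA) at Snrpg (3.42%) and TATAAA at Srsf3 (2.68%). For the blood factors, the RUNX letters (TGTGGT) were found at 4 of 40 genes (Prpf8, Snrpb, Srsf10 and Ddx41), against 9.83%, and the GATA letters (AGATAA) at 0 of 40, against 2.59%. ZNF143 letters (ACTACAAT) were found at 0 of 40, against 0.891%. Srsf1, Snrpe and Prpf4 held none of the 11 motifs in this window.

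**Figure D4:**
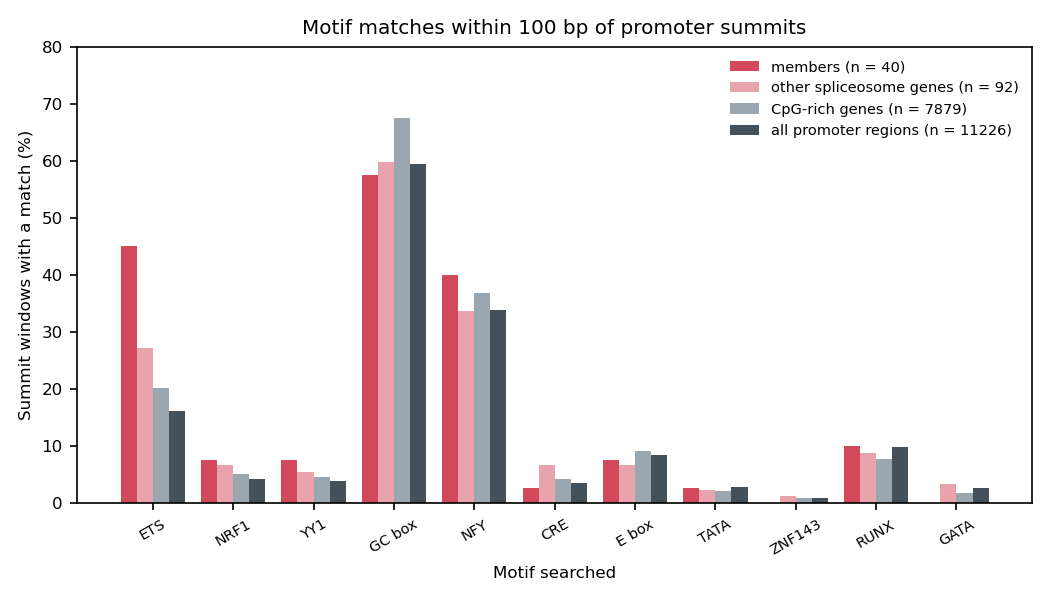
Share of promoter summit windows (201 bp, per cent) that hold each of 11 motifs on either strand, for the 40 genes, 92 other spliceosome genes, genes with a CpG-rich promoter and all promoter regions. The gene sets have a window per gene, and the last set has a window per region. The ETS bars stand at 45%, 27.2%, 20.1% and 16.1%, while the GC box bars lie between 57.5% and 67.5%.

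Away from promoters, 33 of the 41 genes had at least 1 distal region within 50 kb of a TSS in the main list, against 61.9% of all genes, where a distal region is one whose summit lies over 1 kb from every protein-coding TSS. The median was 1 region per gene, as for all genes. There were 65 regions in all, with a median of 4 genes within 50 kb of each, and for 15 of them a spliceosome gene was the nearest gene. Their median signal was 7.31, against 7.96 over 20306 distal regions of the list. By annotation 36 were intergenic, 21 intronic and 8 exonic, where an exon may be of any annotated gene. Of the 65, 1 lay inside the body of a spliceosome gene. It was at an exon within Prpf19, 12689 bp downstream of its TSS (signal 6.73, in neither replicate's IDR list). For these counts, and for the 15 above, no share over all distal regions is given, so they describe the 65 alone. In replicate 1's IDR list 46 of the 65 were found, against 79.6% of all distal regions, and in replicate 2's 37 of the 65, against 55.8%. Both lists held 31 of the 65, against 50.2%. Sf3b3, Sf3b4, Zrsr2, Srsf11, Snrpd1, Snrpe, Snrpa1 and Ddx41 had none within 50 kb.

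**Figure D5:**
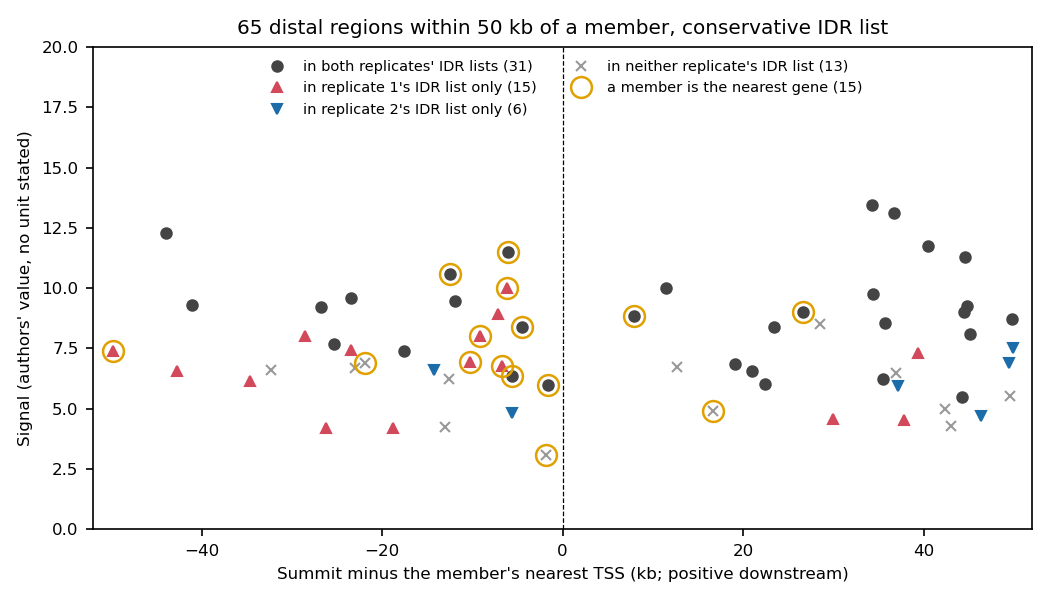
Distance of each of the 65 distal regions from the nearest TSS of its spliceosome gene, in kb with positive values downstream, against signal in the conservative IDR list (authors' value); symbols show in which replicate's IDR list the region was found, and orange rings mark the 15 regions whose nearest gene is a spliceosome gene. Ringed regions are mostly upstream of the TSS, and the 2 highest regions lie over 30 kb downstream of it and are not ringed.

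The regions nearest to a spliceosome gene were led by 1 upstream of U2af1. It lay 6065 bp upstream (chr17:31664796-31665122) with a signal of 11.5 in the main list, 12.8 in replicate 1 and 8.43 in replicate 2, and was intergenic. U2af1 had 2 further regions, 26789 and 34588 bp upstream, nearer to Cryaa. Upstream of Srsf4, 12430 bp away at an exon within Mecr, a region had 10.6 in the main list, 12.1 in replicate 1 and 7.62 in replicate 2. Prpf3 had 1 region 6151 bp upstream with 10.02 in the main list and 12.5 in replicate 1, and none in replicate 2's IDR list. Close to Sf3b1, 1572 bp upstream, a weaker region had 6.00 in the main list, 5.66 in replicate 1 and 5.78 in replicate 2, even between the replicates. Snrpf had a region 4451 bp upstream with 8.37 in the main list, 8.36 in replicate 1 and 6.80 in replicate 2, and Snrpd2 one 7890 bp downstream, in an intron of Gipr, with 8.86, 12.3 and 5.09.

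The strongest regions of the neighbourhood lay nearer to other genes. The highest of the 65, 34234 bp downstream of U2af2 and nearest to Rfpl4, had 13.5 in the main list, 16.0 in replicate 1 and 10.3 in replicate 2. The lowest of the 65 also belonged to U2af2, 1842 bp upstream at an exon within Ccdc106, with 3.07. Sf3a3 had 5 distal regions, the most of the 41 genes. The strongest of these lay 36742 bp downstream at an exon within Inpp5b, with 13.1 in the main list, 11.6 in replicate 1 and 12.8 in replicate 2. It was higher in replicate 2 than in replicate 1, unlike the promoters. For 1 of the 5, 5610 bp upstream with a signal of 6.35, Sf3a3 was the nearest gene. Snrpd3 had a region of 12.3 in an intron of Gucd1, 43919 bp upstream. Near Prpf31, a region 44531 bp downstream in an intron of Tmc4 had 11.3 in the main list, 16.4 in replicate 1 and 6.43 in replicate 2, so that a distal region passed the threshold that the promoter did not.

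Of the other genes with several distal regions, Sf3a2, Srsf3, Srsf4, Srsf6, Snrpf, Snrnp70, Prpf31, Prpf8, Prpf19 and U2af1 had 3 each. Near Srsf6, the regions had main signals of 8.02, 6.48 and 8.99, and at Srsf3 they had 6.91, 4.91 and 5.54. The regions near Prpf8, which led at the promoter, were weaker at 4.20, 7.70 and 4.70. Those near Snrnp70, at introns and an exon within Ppfia3, had 5.49, 4.98 and 6.02. Sf3a2 had regions of 9.60 and 4.83 in Dot1l and an intergenic one of 8.72. Genes with 2 regions were Sf3b2, U2af2, Srsf1, Srsf5, Srsf10, Snrpd2, Snrpd3 and Snrpc. At Srsf1 the stronger, 11486 bp downstream and nearest to Vezf1, had 10.01, and at Srsf10 the stronger, 34346 bp downstream and nearest to Cnr2, had 9.77. The stronger of Sf3b2 had 8.92 at an exon within Gal3st3, that of Snrpc 9.45, and that of Srsf5 7.52.

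Of 94 other spliceosome genes outside the 41, 92 (97.9%) had a main promoter region, so the near-complete share was not limited to the 41. Their median signal was 10.7 (range 5.70 to 15.6), and 55 of 92 exceeded the median of all genes. The 5 highest were Rbm17 (15.6), a U2-related factor, Snrnp25 (15.5) and Snrnp48 (15.3) of the minor spliceosome, Rbm25 (15.1), a U1-associated factor, and Lsm5 (14.9), of the ring on U6 RNA. The 2 without a main promoter region were Sf3b5, the smallest SF3B subunit, with none in any of the 8 lists, and Lsm7, with 8.28 in replicate 1's IDR list and 3.03 in replicate 2's pseudoreplicated list. Median signal below and median width above those of all genes were also found in 2 further groups of the main list. The 11 SR-related proteins and SR protein kinases had a median signal of 9.17 and a median width of 1205 bp, and the 10 hnRNP genes, whose products often oppose SR proteins, had 7.87 and 1141.5 bp. In both groups 3 genes exceeded the median signal of all genes. In replicate 2's IDR list the median width was 691 bp for the SR-related proteins and kinases and 785.5 bp for the hnRNP genes, so the first group did not exceed the 693 bp of all genes there.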

How the data were processed

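ATAC-seq peak lists of 2 libraries were analysed, both of 1 group of haematopoietic stem cells, on mm10 per the labels. Neither the aligner nor the peak caller, nor any shift applied for transposase insertion, is given in the sources used here. The signal of a peak is the deposited value, whose control and scaling the authors did not state, and it was used to describe and rank peaks within a list. Depth per sample is unknown, and no counting interval can be given. Of the lists, 8 were used: an IDR thresholded and a pseudoreplicated list per replicate, and 4 lists made from both libraries. In the conservative IDR list 99.9% of peaks carry the position and signal of the list from pooled reads, so its signal is a value over both libraries. The lists ranked by IDR were not used here.

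Peaks of a list that overlapped were joined into 1 region, which took the summit and signal of its highest peak. Start sites came from GENCODE release M21 on GRCm38.p6, with 21853 genes on 21 chromosomes, and the sequence from RefSeq. CpG content was taken at the 5′-most TSS ±250 bp. Scripts ran in Python 3.11.15 with numpy 2.4.6, scipy 1.17.1, pysam 0.24.0 and matplotlib 3.10.9, and the assignment of regions was tested on simulated data. No test was made. The members, the lists of other spliceosome genes and markers, and the motifs were chosen with earlier results of these data known. All 41 genes are named. Values in the main list and each replicate's IDR list, where present, are given at least for the 5 highest and the 5 lowest. The same holds for those absent from the main list or from a replicate's IDR list and those with 2 or more distal regions. Further genes and some distal regions were chosen after their values were seen. Alternatives were other lists, each replicate alone, peaks above the median signal, unmerged peaks, the 5′-most TSS, and other windows.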

Additional observations from a re-analysis of the deposited data

How the results depend on the processing

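Of 73 values computed under alternatives, 58 stayed within the limit set (1.5 times for counts, the spread between the replicates for medians) and 15 passed it. Promoter counts, already near the full number of genes, could pass it only by falling. For medians the limit came from single-replicate values that are themselves among the 73, so the tally is no independent measure of stability. The count of genes with a promoter region lay between 38 (5′-most TSS only, against 47.9% of all genes) and 41. It was 41 in lists where the share of all genes ran from 52% (replicate 1's IDR list) to 66% (pooled reads). The count in both replicates' lists was 41 with the pseudoreplicated lists, against 59.5% of all genes. The median signal, 10.05, was 8.11 to 10.9 with 1 replicate left out. The median summit position, -33 bp, was -40 bp in the IDR thresholded, replicated and pooled lists, -26 bp with peaks above the median signal, -21.5 bp with the 5′-most TSS and -42 to -41 bp with 1 replicate left out. The count of distal regions, 65, followed the length of the list and the window: 100 in the IDR thresholded list, 178 in the replicated list, 213 in the pooled list, 40 with peaks above the median signal, 30 within 25 kb, 139 within 100 kb, and 46 to 65 with 1 replicate left out. The genes with a distal region numbered 23 (within 25 kb, against 44.6% of all genes) to 39. The count of 39 was reached within 100 kb, against 76.5% of all genes, and in the pooled list, against 83.0%. The median width of SR protein promoter regions, 1218.5 bp, was 1063 to 1100.5 bp with 1 replicate left out, in lists whose regions were narrower throughout. The motif windows and single-library widths were added after seeing the data. No paired analysis was possible because there is 1 group. With 2 libraries of unknown depth, the absence of a region, as at Prpf31, means that it did not pass the threshold, not that the DNA was closed.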
